A study of Glycine max with 30 samples.

Results

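The transcription factors LEC1 (LEAFY COTYLEDON1), FUS3 (FUSCA3) and ABI3 (ABSCISIC ACID INSENSITIVE3) were followed in developing soybean seeds through 6 loci taken as their homologs: Glyma07g39820 and Glyma17g00950 for LEC1, Glyma16g05480 and Glyma19g27340 for FUS3, and Glyma08g47240 and Glyma18g38490 for ABI3. The loci were listed by identifier and not by a rule on their values, though earlier results of these data were known. The count tables themselves hold no gene names. Of the 54175 genes counted, 5 of the 6 loci had a row. Glyma19g27340 had none, so FUS3 was followed in Glyma16g05480 only. By the number in their identifiers, the 5 loci lie on chromosomes 7, 17, 16, 8 and 18. Coordinates and sequences were not used here.

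In *Arabidopsis thaliana*, LEC1 is a subunit of the trimeric NF-Y complex that binds CCAAT boxes, while FUS3 and ABI3 are B3-domain proteins that bind RY elements in promoters of seed genes. Together they form a network that keeps the embryo in its maturation programme, with accumulation of storage proteins and oil. ABI3 also transmits the signal of the hormone abscisic acid (ABA) and is needed for the acquisition of desiccation tolerance late in maturation.

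RNA of whole seeds (cotyledons, endosperm and seed coat) was sequenced from 2 homozygous recombinant inbred lines of the same cross of soybean parents, at 5 seed developmental stages and with 3 replicates per line and stage, 30 libraries in all. The *3mlpa* line carries the low phytic acid mutations *mips1*, *mrp-l* and *mrp-n*, in genes of phytic acid synthesis and of a transporter of the ABC family, and 3MWT carries the non-mutant allele at all of these loci. Stages were set by seed length: seeds of 2 to 4 mm made up stage 1, each later stage was 2 mm longer, and seeds of stage 5 measured 10 to 12 mm. Each replicate pooled seeds from different pods on separate plants of the same growth chamber. Each genotype is 1 line and the lines are not isogenic, so the 3 mutations and other differences between the lines cannot be told apart. The 6 libraries of a stage shared a sequencing lane, so stage and lane cannot be told apart. In RNA of whole seeds, fewer cells of a type and less RNA per cell cannot be told apart.

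The libraries held 14150244 to 29476755 reads counted on genes. The library with the fewest, 3MWT stage 1 replicate 2, was also the least like the other replicates of its group, with a mean Pearson r of 0.978 on a log scale against a median of 0.992 over all libraries. Reads aligned to more than 1 place were not counted on genes, and their alignments numbered 9060479 to 50575458 per library in 3MWT and 4298110 to 8643432 in *3mlpa*. Per library, the counts were 418 to 4833 for Glyma07g39820, 780 to 8693 for Glyma17g00950, 43 to 415 for Glyma16g05480, 795 to 10927 for Glyma08g47240 and 498 to 5422 for Glyma18g38490. Levels are given as CPM, the counts of a gene for every 1000000 counts of a library, after TMM scaling, which sets most genes equal between libraries. All 5 loci passed the filter on low counts in every test. Since gene lengths were not used, the levels of different loci are not compared with each other. Whether libraries of 2 groups overlapped is a description. With 3 libraries against 3, an exact permutation test gives p = 0.1 at the least, and the share of all genes without overlap was not counted.

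The LEC1 homolog Glyma07g39820 was highest at stage 2 in both lines. In 3MWT it stood at 27.3, 75.9 and 26.8 CPM in the 3 libraries of stage 1, 108.1, 127.4 and 131.7 CPM at stage 2, and 113.6, 101.1 and 105.9 CPM at stage 3. It then stood at 70.8, 75.9 and 90.5 CPM at stage 4 and at 66.0, 56.9 and 49.8 CPM at stage 5. The order of the means was stage 2, 3, 4, 5 and 1, with overlapping libraries for stages 2 and 3 and for stages 5 and 1. In *3mlpa* the same gene gave 33.8, 28.1 and 31.9 CPM at stage 1, 84.5, 78.5 and 76.5 CPM at stage 2, and 100.4, 60.1 and 64.5 CPM at stage 3. Stage 4 gave 62.2, 58.2 and 44.3 CPM and stage 5 gave 32.3, 40.6 and 32.3 CPM. The order of the stages was that of 3MWT, with an overlap of stages 3 and 4 too, and from stage 2 to stage 5 every *3mlpa* library lay below every 3MWT library of its stage.

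The other LEC1 homolog, Glyma17g00950, had its highest mean at stage 3 in both lines, or at stage 2 in 3MWT with library totals only. In 3MWT its level was 43.4, 132.5 and 39.6 CPM at stage 1, 213.2, 225.6 and 237.0 CPM at stage 2, and 262.5, 248.7 and 271.9 CPM at stage 3. Stage 4 gave 220.0, 241.6 and 292.1 CPM and stage 5 gave 234.1, 217.7 and 199.3 CPM. Only stage 1 was set apart from the stage next to it in the order. In *3mlpa* the level was 71.1, 50.6 and 64.4 CPM at stage 1, 167.9, 167.2 and 162.4 CPM at stage 2, and 250.7, 162.3 and 191.9 CPM at stage 3. It was 217.5, 212.7 and 165.0 CPM at stage 4 and 139.6, 157.1 and 134.0 CPM at stage 5. Here stage 5 was also set apart from the stages above it in the order. Libraries of the 2 lines overlapped at stages 1 and 3 and did not overlap at stages 2, 4 and 5, where 3MWT was higher.

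The FUS3 homolog Glyma16g05480 was lowest at stage 1 and had much the same level at the later stages. Its level in 3MWT was 2.9, 7.7 and 2.2 CPM at stage 1, 9.7, 9.8 and 11.3 CPM at stage 2, and 10.0, 8.6 and 9.6 CPM at stage 3. It was 10.7, 11.6 and 10.2 CPM at stage 4 and 8.9, 9.1 and 8.4 CPM at stage 5. After stage 1 the libraries of each stage overlapped with those next in order. The *3mlpa* libraries gave 4.9, 3.6 and 4.8 CPM at stage 1, 9.3, 8.4 and 9.1 CPM at stage 2, and 8.9, 8.5 and 9.3 CPM at stage 3. They gave 10.0, 8.9 and 8.7 CPM at stage 4 and 9.0, 10.9 and 13.2 CPM at stage 5. The highest mean was at stage 4 in 3MWT and at stage 5 in *3mlpa*, or at stage 2 in each with library totals only, and on the TMM scale in both lines its libraries overlapped with those of the stage next in the order.

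On the TMM scale the ABI3 homologs were highest at stage 5, the last stage sampled, while with library totals only the highest mean was at stage 2 in 3MWT and at stage 4 in *3mlpa* for both. In 3MWT, Glyma08g47240 stood at 48.1, 128.7 and 40.4 CPM at stage 1, 249.4, 252.9 and 247.3 CPM at stage 2, and 316.4, 328.7 and 306.5 CPM at stage 3. Stage 4 gave 337.4, 351.6 and 357.2 CPM and stage 5 gave 356.7, 341.0 and 391.5 CPM. All stages were apart except stages 4 and 5. In *3mlpa*, Glyma08g47240 stood at 72.8, 51.7 and 83.4 CPM at stage 1, 171.7, 148.8 and 175.9 CPM at stage 2, and 231.5, 300.5 and 353.3 CPM at stage 3. Stage 4 gave 323.3, 340.1 and 528.0 CPM and stage 5 gave 416.8, 398.2 and 623.7 CPM, with an overlap of stage 4 with stages 3 and 5. Every 3MWT library was above every *3mlpa* library at stage 2, and every *3mlpa* library was above every 3MWT library at stage 5.

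Glyma18g38490, the other ABI3 homolog, had the same order of stages. Its 3MWT libraries gave 26.6, 73.3 and 25.3 CPM at stage 1, 133.5, 141.1 and 133.6 CPM at stage 2, and 162.1, 166.2 and 143.6 CPM at stage 3. They gave 174.5, 179.0 and 177.8 CPM at stage 4 and 177.6, 183.9 and 196.6 CPM at stage 5. Only stages 4 and 5 overlapped. The *3mlpa* libraries gave 50.6, 36.4 and 51.9 CPM at stage 1, 112.0, 94.9 and 106.8 CPM at stage 2, and 147.8, 181.4 and 196.6 CPM at stage 3. They gave 198.8, 201.8 and 279.9 CPM at stage 4 and 245.3, 225.2 and 309.5 CPM at stage 5. The lines did not overlap at stage 2, where 3MWT was higher, nor at stages 4 and 5, where *3mlpa* was higher. In each of the 5 loci, the value of 3MWT stage 1 replicate 2 lay above that of every other stage 1 library of either line.

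**Figure D1:**
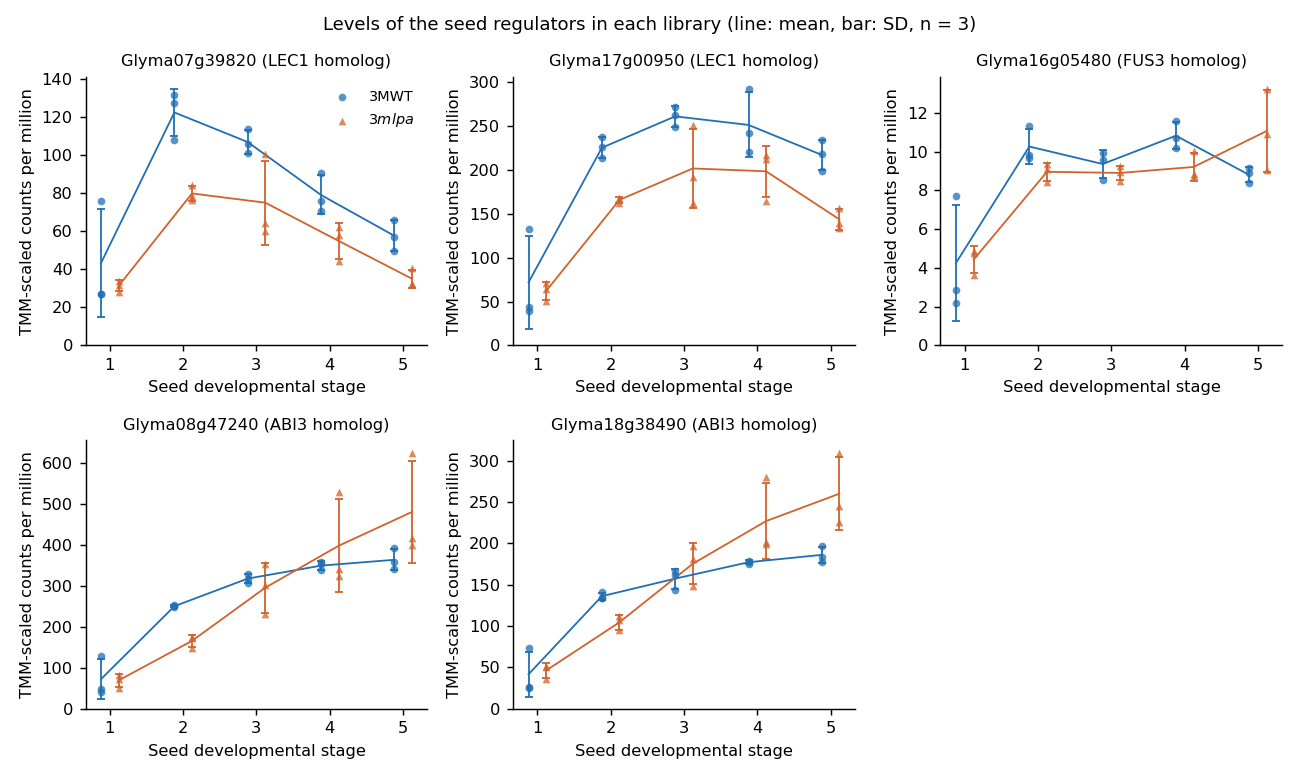
Level of each of the 5 loci (TMM-scaled CPM, vertical axis) at the 5 seed developmental stages (horizontal axis), with 1 point per library, circles for 3MWT and triangles for *3mlpa*; lines join the means and bars are the SD over 3 libraries. On this scale the LEC1 homologs peaked at stage 2 or 3 and the ABI3 homologs were highest at stage 5 (with library totals only, the ABI3 homologs at stage 2 in 3MWT and 4 in *3mlpa*, and Glyma17g00950 in 3MWT at stage 2), and at stage 1 a single 3MWT library stood above all others.

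The step from stage 1 to stage 2 was the largest step between neighbouring stages in all 5 loci and both lines. In 3MWT all 5 rose (edgeR's quasi-likelihood test, Benjamini-Hochberg adjusted p at or below 0.01), where 13.3 % of all genes tested were called. The log2 fold change was 1.495 (SE 0.29, adjusted p = 0.00151) for Glyma07g39820, 1.64 (SE 0.32, adjusted p = 0.00161) for Glyma17g00950 and 1.28 (SE 0.29, adjusted p = 0.00458) for Glyma16g05480. It was 1.78 (SE 0.30, adjusted p = 0.000464) for Glyma08g47240 and 1.70 (SE 0.28, adjusted p = 0.000456) for Glyma18g38490. In *3mlpa* all 5 rose as well, against 5.17 % of all genes called, by 1.03 (Glyma16g05480) to 1.43 (Glyma17g00950) on the log2 scale, with adjusted p from 0.000106 to 0.00422 in the same test. The median of the 5 was 1.64 in 3MWT and 1.27 in *3mlpa*, beside 0.00 for all genes in each line. Without 3MWT stage 1 replicate 2, the 5 log2 fold changes in 3MWT were 1.99 to 2.49, with 5 of 5 called. Without 3MWT stage 1 replicate 1, both ABI3 homologs were still called and the other 3 loci were not, with an adjusted p of 0.0101 to 0.0339. Glyma16g05480 in 3MWT also missed the threshold without replicate 3 of stage 1 or any single library of stage 2 (adjusted p of 0.011 to 0.0191), and Glyma08g47240 in *3mlpa* without replicate 1 or 2 of stage 1 or replicate 1 or 3 of stage 2 (0.0148 to 0.0253). With library totals only, Glyma16g05480 in 3MWT was at 1.19 (adjusted p = 0.0165) and not called.

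After stage 2 no step between neighbouring stages passed the test in any of the loci. In 3MWT, 0 of 5 were called from stage 2 to 3, from stage 3 to 4 and from stage 4 to 5 by edgeR's quasi-likelihood test, with 0 at an unadjusted p under 0.05 and 0 by DESeq2 at each step. Of all genes, 6.06, 1.27 and 0.491 % were called at these steps, and 13004, 8904 and 4608 of 43381 had an unadjusted p under 0.05. In *3mlpa*, 0 of 5 were called at each step, beside 3.34, 0.0270 and 0.259 % of all genes. Here 2, 1 and 2 of the 5 loci had an unadjusted p under 0.05, beside 11163, 7951 and 9231 of all 44448 genes tested. DESeq2 called 1, 0 and 0 loci. The locus called by DESeq2 was the ABI3 homolog Glyma18g38490 from stage 2 to 3, with a log2 fold change of 0.71 (SE 0.18) and an adjusted p of 0.0252 in edgeR's test. The whole change from stage 2 to stage 5 within a line was not tested. Over it the mean of Glyma07g39820 went from 122.4 to 57.6 CPM in 3MWT and from 79.9 to 35.1 CPM in *3mlpa*. That of Glyma08g47240 went from 249.9 to 363.0 CPM in 3MWT and from 165.5 to 479.6 CPM in *3mlpa*.

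Over the whole period, from stage 1 to stage 5, the ABI3 homologs rose the most of the 5. Glyma08g47240 rose 5.04-fold in 3MWT (log2 fold change 2.33, SE 0.30, adjusted p = 7.76e-06) and 6.80-fold in *3mlpa* (2.76, SE 0.26, adjusted p = 1.04e-06, edgeR). Glyma18g38490 rose 4.49-fold in 3MWT (2.17, SE 0.29, adjusted p = 9.76e-06) and 5.51-fold in *3mlpa* (2.46, SE 0.19, adjusted p = 2.03e-07, edgeR). In *3mlpa*, 1.27 and 1.19 of these log2 changes of Glyma08g47240 and Glyma18g38490 came in the step from stage 1 to 2. The LEC1 homolog Glyma17g00950 rose by 1.60 and 1.18 on the log2 scale in 3MWT and *3mlpa*, and the FUS3 homolog Glyma16g05480 by 1.07 and 1.30, each with an adjusted p of at most 0.00681 in edgeR's test. Glyma07g39820 had log2 fold changes of 0.42 (adjusted p = 0.231) in 3MWT and 0.14 (adjusted p = 0.527) in *3mlpa* and did not pass. Glyma16g05480 missed the threshold in 3MWT without replicate 1 or 3 of stage 1, replicate 2 of stage 3, or any single library of stages 4 and 5 (adjusted p of 0.01004 to 0.0393). With all libraries 4 of 5 loci were called in each line, where 41.8 % of all genes were called in 3MWT and 42.3 % in *3mlpa*.

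The changes between stages depended on how libraries were scaled. The summed level of 16 loci for storage proteins and oil synthesis was 45.6 to 397 CPM in the 6 libraries of stage 1 and 216516 to 253398 CPM in those of stage 5. The part of these transcripts in the effect of scaling was not tested. With library totals only, the median log2 change of all genes from stage 1 to 5 moved by -0.88 in 3MWT and -0.91 in *3mlpa*. The ABI3 homologs were still called in both lines on that scale, Glyma17g00950 and Glyma16g05480 no longer passed (log2 fold changes of 0.67 and 0.15 in 3MWT and 0.27 and 0.38 in *3mlpa*), and Glyma07g39820 reversed to -0.51 in 3MWT (adjusted p = 0.159) and -0.77 in *3mlpa*, where the fall passed the test (adjusted p = 0.00693, edgeR). Leaving out 3MWT stage 1 replicate 2, the change of Glyma07g39820 in 3MWT became 1.09 (adjusted p = 4.71e-06, edgeR).

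A ratio within a library needs no scaling between libraries. The counts of both ABI3 homologs divided by those of both LEC1 homologs gave 1.06, 0.969 and 0.989 in the 3MWT libraries of stage 1 and 1.78, 1.91 and 2.36 in those of stage 5. In *3mlpa* the ratio was 1.119 to 1.40 at stage 1 and 3.85, 3.15 and 5.61 at stage 5. The ratio was thus higher at stage 5 than at stage 1 in every library of each line. The lines were apart at stages 1, 4 and 5, with *3mlpa* higher at each, and overlapped at stages 2 and 3. At stage 2 the ratio was 0.992 to 1.18 in *3mlpa* and 1.03 to 1.19 in 3MWT. At stage 3 the *3mlpa* libraries gave 1.08, 2.17 and 2.14 and at stage 4 they gave 1.87, 2.00 and 3.86, a wider spread than the 1.19 to 1.41 and 1.40 to 1.76 of 3MWT. This ratio was chosen after the levels had been seen and is given without a test.

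**Figure D2:**
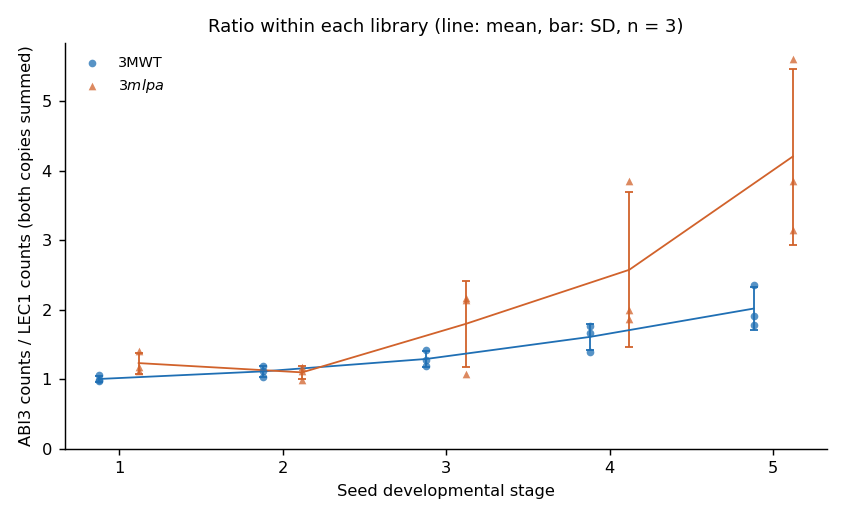
Counts of both ABI3 homologs divided by counts of both LEC1 homologs within each library (vertical axis, no unit) at the 5 stages (horizontal axis), circles for 3MWT and triangles for *3mlpa*; lines join the means and bars are the SD over 3 libraries. The 3MWT libraries reached 1.78 to 2.36 at stage 5 and the *3mlpa* libraries 3.15 to 5.61.

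At stages 3 and 4, the *3mlpa* library that stood apart in this ratio also stood apart in storage transcripts, but at stage 5 it did not. At stage 3 the summed storage and oil level of *3mlpa* was 12120, 55527 and 48204 CPM, and the first of these libraries had the ratio of 1.08. At stage 4 it was 65964, 74857 and 171293 CPM, and the last of these had the ratio of 3.86. At stage 5 it was 253398, 216516 and 228715 CPM, and the last of these, with the ratio of 5.61, lay between the others. In 3MWT the library with the highest storage level did not have the highest ratio at stage 3 or 4. There the levels were 45032, 74957 and 101059 CPM at stage 3, with ratios of 1.27, 1.41 and 1.19. At stage 4 of 3MWT they were 140242, 161067 and 135716 CPM, with ratios of 1.76, 1.67 and 1.40. The part of the storage transcripts in the results on the lines was not tested.

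The lines were compared at each stage to ask whether the mutant line differed in these regulators. At stage 2, where 14.2 % of all genes were called, 3 of the 5 loci were lower in *3mlpa*. Glyma07g39820 was 0.67-fold its 3MWT level (log2 fold change -0.59, SE 0.09, adjusted p = 0.00259), Glyma17g00950 0.75-fold (-0.41, SE 0.07, adjusted p = 0.00447) and Glyma08g47240 0.68-fold (-0.56, SE 0.08, adjusted p = 0.00205, edgeR). The ABI3 homolog Glyma18g38490 (-0.35, adjusted p = 0.0131) and the FUS3 homolog Glyma16g05480 (-0.17, adjusted p = 0.239) did not pass edgeR's test. The libraries of the 2 lines did not overlap in either, which is a description without a share of all genes. DESeq2 called 4 of 5. The share of all genes that DESeq2 called is not given here for any comparison. The median of the 5 log2 fold changes was -0.41, beside 0.01 for all genes. No call at this stage held in a single fit over all 30 libraries (adjusted p of 0.1001 to 0.2805) or without 3MWT stage 2 replicate 2 (0.0121 to 0.0239), and without *3mlpa* stage 2 replicate 2 or 3 only Glyma08g47240 was called. Glyma17g00950 also missed the threshold of edgeR's test without *3mlpa* stage 2 replicate 1 (adjusted p = 0.0155), without 3MWT stage 2 replicate 3 (0.0154), and with library totals only (0.0106). At this stage the summed storage and oil level was 1106, 781 and 2184 CPM in *3mlpa* and 14845, 3256 and 2111 CPM in 3MWT, with an overlap of the lines, and its part in the result was not tested.

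At stage 5 the LEC1 and ABI3 homologs lay on opposite sides. The LEC1 homologs were 0.60-fold (Glyma07g39820, log2 fold change -0.74, SE 0.14, adjusted p = 0.0163) and 0.65-fold (Glyma17g00950, -0.62, SE 0.11, adjusted p = 0.0134) their 3MWT level, and the ABI3 homologs 1.30-fold (Glyma08g47240, 0.38, SE 0.18, adjusted p = 0.193) and 1.37-fold (Glyma18g38490, 0.46, SE 0.13, adjusted p = 0.0613). The lines did not overlap in these 4 loci, which is a description without a share of all genes. By edgeR's quasi-likelihood test 0 of the 5 were called at 1 % FDR, beside 1.91 % of all genes. An unadjusted p under 0.05 was found in 3 of the 5, and in 11937 of all 39253 genes tested. DESeq2 called the LEC1 homologs (adjusted p of 0.000308 and 4.59e-05). Without *3mlpa* stage 5 replicate 3, the library with the highest ABI3 levels, edgeR called them as well, at -0.68 (adjusted p = 0.00675) and -0.57 (adjusted p = 0.00478). The summed storage and oil level at stage 5 was 216516 to 253398 CPM in *3mlpa* and 228343 to 242380 CPM in 3MWT, so that the lines overlapped.

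At stages 1, 3 and 4 no locus passed edgeR's test between the lines. At stage 1, 0 of 5 were called (0.897 % of all genes), 0 had an unadjusted p under 0.05 (12702 of all 42457 genes) and DESeq2 called 0. Without 3MWT stage 1 replicate 2, the 5 log2 fold changes were 0.22 to 0.84 in place of -0.45 to 0.17, and Glyma18g38490 was called (adjusted p = 0.00714). At stage 3, 0 of 5 were called (1.23 % of all genes), 1 had an unadjusted p under 0.05 (12226 of all 40971 genes) and DESeq2 called 0. Glyma07g39820 was at -0.51 (SE 0.20, adjusted p = 0.128), and at -0.78 (adjusted p = 0.00189) without *3mlpa* stage 3 replicate 1, the library with the lowest storage level of its group. At stage 4, 0 of 5 were called (0.996 % of all genes), 3 had an unadjusted p under 0.05 (9578 of all 39956 genes) and DESeq2 called 0. The log2 fold changes at stage 4 were -0.53 and -0.34 for the LEC1 homologs, -0.24 for the FUS3 homolog and 0.19 and 0.36 for the ABI3 homologs.

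**Figure D3:**
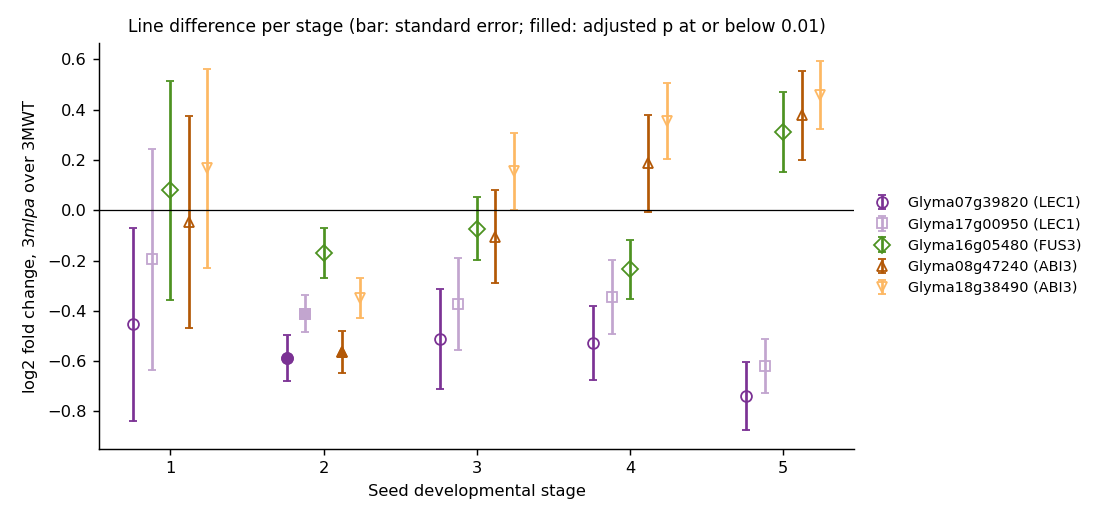
Log2 fold change of *3mlpa* over 3MWT (vertical axis) for the 5 loci at each seed developmental stage (horizontal axis); bars are the standard error of edgeR's quasi-likelihood fit over the 6 libraries of a stage, and filled symbols mark an adjusted p at or below 0.01. The 3 filled symbols are at stage 2. The LEC1 homologs were below 0 at every stage (at stage 1, 0.22 and 0.59 without 3MWT stage 1 replicate 2). The ABI3 homologs went from -0.56 and -0.35 at stage 2 to 0.38 and 0.46 at stage 5.

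Whether the course over the stages differed between the lines was tested in a single fit over all 30 libraries. For the change from stage 1 to stage 5, 0 of 5 loci were called by edgeR's test, beside 1.18 % of all genes. None had an unadjusted p under 0.05, beside 9054 of all 45815 genes, and DESeq2 called 0. The differences between the lines were -0.25 (SE 0.37) and -0.39 (SE 0.39) for the LEC1 homologs, 0.26 (SE 0.36) for the FUS3 homolog, and 0.46 (SE 0.40) and 0.33 (SE 0.35) for the ABI3 homologs, with adjusted p from 0.570 to 0.777. Without 3MWT stage 1 replicate 2, the difference for Glyma17g00950 was -1.18 (adjusted p = 0.00210), and those of the FUS3 and ABI3 homologs reversed to -0.46, -0.25 and -0.35 without passing.

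For the change from stage 2 to stage 5, which does not use the libraries of stage 1 as an end point, the contrast was added after the levels had been seen. The log2 change of *3mlpa* less that of 3MWT was 1.00 (SE 0.40, adjusted p = 0.149) for the ABI3 homolog Glyma08g47240 and 0.86 (SE 0.35, adjusted p = 0.156) for Glyma18g38490, which did not pass edgeR's test. In all, 0 of 5 loci were called, beside 1.39 % of all genes, and 0 by DESeq2. An unadjusted p under 0.05 was found in 2 of the 5, and in 9399 of all 45815 genes tested. The value for Glyma18g38490 was 0.86 again without 3MWT stage 1 replicate 2, and then passed with an adjusted p of 0.00894. The LEC1 homologs differed between the lines by -0.10 (SE 0.37) and -0.15 (SE 0.38) in this change.

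The balance of the gene copies in a pair was compared next, since a ratio of 2 genes in a library needs neither depth nor length to show a change. In the LEC1 pair, the share of Glyma07g39820 in the counts of both copies was 38.6, 36.4 and 40.4 % in the 3MWT libraries of stage 1 and 22.0, 20.7 and 19.98 % in those of stage 5. In *3mlpa* it was 32.2, 35.7 and 33.1 % at stage 1 and 18.8, 20.5 and 19.4 % at stage 5. The mean share was lower at each later stage in both lines, with 35.2, 29.0 and 24.0 % at stages 2, 3 and 4 of 3MWT and 32.5, 26.9 and 21.6 % in *3mlpa*. The log2 ratio of the copies fell by 1.15 from stage 1 to stage 5 over the 12 libraries (exact permutation test within lines, two-sided, p = 0.005, adjusted p = 0.005 over the 2 pairs), and this p is the smallest that the design can give. The library that stood apart in level at stage 1 of 3MWT had a share of 36.4 %, within 4 percentage points of the other 2.

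In the ABI3 pair the balance moved little. Glyma08g47240 made up 64.4, 63.7 and 61.5 % of the counts of both copies in the 3MWT libraries of stage 1 and 66.8, 65.0 and 66.6 % in those of stage 5. In *3mlpa* it made up 59.0, 58.7 and 61.6 % at stage 1 and 63.0, 63.9 and 66.8 % at stage 5. The log2 ratio rose by 0.24 (exact permutation test, two-sided, p = 0.005, adjusted p = 0.005).

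The lines also differed in the balance of both pairs, always with the smaller share of the first copy in *3mlpa*. Over all 30 libraries, with labels permuted within stages, the log2 ratio was lower in *3mlpa* by a mean difference of -0.19 in the LEC1 pair (permutation test, two-sided, p = 1e-05, the smallest that 100000 resamples can give, adjusted p = 2e-05). In the ABI3 pair the difference was -0.20 (p = 3e-05, adjusted p = 3e-05, permutation test). The mean share of the first copy was lower in *3mlpa* at each of the 5 stages in each pair, with the largest gap at stage 1 in the LEC1 pair, 38.5 % ± 1.98 against 33.7 % ± 1.80 (SD, n = 3). The lines also differed in the number of reads with several alignments, which were not counted on either copy, and the part of this in the balance was not tested.

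**Figure D4:**
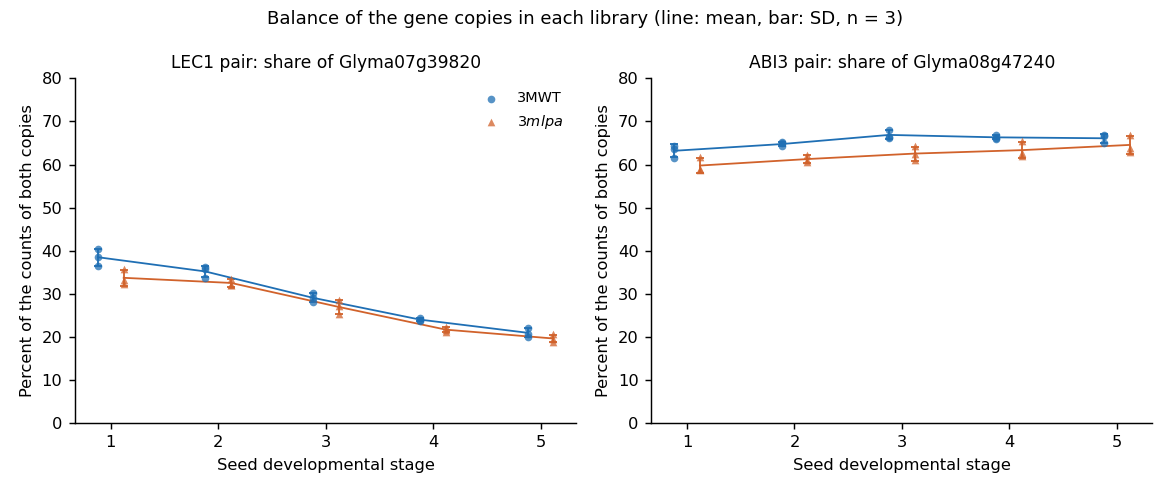
Share of the first copy in the counts of both copies of a pair (percent, vertical axis) at the 5 stages (horizontal axis), for the LEC1 pair (left, Glyma07g39820) and the ABI3 pair (right, Glyma08g47240), with 1 point per library, lines through the means and bars for the SD over 3 libraries. The mean LEC1 share went from 38.5 to 20.9 % in 3MWT and from 33.7 to 19.6 % in *3mlpa*. The mean ABI3 share stayed between 59.8 and 66.9 %, and single libraries ranged from 58.7 to 68.1 %.

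Genes of storage proteins and oil synthesis, which these regulators activate in *Arabidopsis*, were followed in the 16 soybean loci of the storage list, taken from general knowledge. Of these, 10 rose from stage 1 to 2, 8 from stage 2 to 3 and 15 from stage 1 to 5 in 3MWT, and 7, 7 and 16 in *3mlpa* (edgeR, adjusted p at or below 0.01). Of all genes, 13.3, 6.06 and 41.8 % were called in either direction at these steps in 3MWT and 5.17, 3.34 and 42.3 % in *3mlpa*. The median log2 fold change of the list from stage 2 to 3 was 3.46 in 3MWT and 3.22 in *3mlpa*, beside -0.04 and -0.02 for all genes, while the 5 regulators had medians of 0.21 and 0.24 at this step. Between the lines, 2 of the 16 were lower in *3mlpa* at stage 1, 3 at stage 2 and 0 at later stages. Of all genes, 0.897 % were called at stage 1 and 14.2 % at stage 2, so that the count at stage 2 was near the share of all genes. The median log2 fold change of the list was -1.66 at stage 1 (14 loci tested) and -0.86 at stage 2, beside -0.004 and 0.01 for all genes. At stage 2 single loci of the list went both ways, from -5.80 (adjusted p = 0.0304) to 6.11 (adjusted p = 0.0344, edgeR). Of 6 regulators linked to ABA, 5 with a zinc-finger homeodomain and the coactivator MBF1B, 5 were lower in *3mlpa* at stage 2. The study chose those 6 on these same libraries, so their count is no independent evidence of a direction. Of 8 genes of raffinose oligosaccharide synthesis, sugars of the maturing seed, 1 was called between the lines, beside 1.91 % of all genes at stage 5. It was the raffinose synthase gene Glyma06g18890, which was 2.31-fold higher in *3mlpa* at stage 5 (adjusted p = 0.00137, edgeR). This call departs from the paper, which used DESeq and found no gene of this pathway different at 1 % FDR. The departure is in the call and not in the direction. By qPCR the paper also found this gene higher in the mutant line in the late stages, and reports that its RNA-Seq values matched there.

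The genes whose course was most like that of each locus were taken by Pearson's r of log2(CPM + 1) over the 30 libraries, among 32401 genes with a mean of at least 1 CPM. These r are a description over libraries that share stages, lines and lanes. For the ABI3 homologs the gene most alike was the other copy, with r = 0.992, followed by Glyma12g33320 in both (0.990 for Glyma08g47240 and 0.984 for Glyma18g38490). The next in line were Glyma17g36500 (0.989) and Glyma11g07370 (0.983). For the LEC1 homologs the other copy was not among the most alike, with r = 0.815, which ranked 239 for Glyma07g39820 and 1010 for Glyma17g00950. Glyma07g39820 was most like Glyma13g43250 (0.960), Glyma16g28090 (0.959) and Glyma13g44270 (0.956), and Glyma17g00950 most like Glyma05g27320 (0.977), Glyma09g39660 (0.972) and Glyma13g36500 (0.972). For the FUS3 homolog they were Glyma15g34770 (0.953), which is in the list of storage and oil loci, Glyma06g09120 (0.947) and Glyma05g15220 (0.944).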

How the data were processed

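The authors aligned single-end 100-bp reads to the soybean reference genome with TopHat 2.0.8, and deposited raw counts per gene from HTSeq-count in Union mode, which leaves out reads with several alignments. Of the uniquely aligned reads, 13.15 to 29.81 % lay on no gene or were ambiguous and were left out. The authors' normalized values, DEG tables and GO output were not used. The counts were tested with edgeR 4.0.16 (R 4.3.3, TMM, quasi-likelihood test) after leaving out genes whose counts over the libraries of a fit summed to under 10. Lines were tested per stage and stages per line, with Benjamini-Hochberg adjustment over all genes and calls at 1 % FDR. The standard error is the log2 fold change over the square root of F. Copy balance used log2 ratios of counts plus 0.5. Alternatives were other scalings and filters, DESeq2 1.42.0, a replicate block, a single fit, and each library left out. For the alternatives, the share of all genes called is not given. Tests were checked on simulated data. The loci named are those listed, the 3 genes most like each, and list genes that the paper annotates. The loci and lists were chosen with earlier results of these data known. None of the 54175 identifiers matched the available RefSeq table. The p-values measure the spread between pools of seeds of a single line.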

Additional observations from a re-analysis of the deposited data

Results flagged for a closer look

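The line difference of the ABI3 homologs changed sides between stages, with every 3MWT library higher at stage 2, and every *3mlpa* library higher at stage 5 for Glyma08g47240 and at stages 4 and 5 for Glyma18g38490. For Glyma08g47240 the log2 difference between the lines at stage 5 less that at stage 2 was 0.94. For Glyma18g38490 it was 0.81 at stage 5 and 0.70 at stage 4. These values come from the fits per stage and were not tested themselves. The lack of overlap is a description, and its share over all genes was not counted. The change from stage 2 to stage 5 in a single fit over all libraries was tested and did not pass edgeR's test (adjusted p = 0.149 and 0.156), and the change from stage 2 to stage 4 was not tested.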

How the results depend on the processing

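Of the alternatives other than leaving out a library, 696 values were taken as unchanged, 18 changed sign, 8 gained a call or rose in count, 15 lost a call or fell in count, and 7 stages of the highest mean moved. The 696 include counts of loci called that moved little, such as 3 to 4 at stage 2 with DESeq2. They also include stages of the highest mean that stayed and lists of most alike genes that shared at least 2 of 3. Whether the replicate numbers marked shared material cannot be told from these libraries, since each deviation is taken from a mean of only 3. Same-numbered libraries of different groups deviated together with r of -0.34 to 0.51, over 0.1 in every number in only 1 of 15 pairs of groups. With the replicate block, 0 of 5 loci were called at stage 2 between the lines (adjusted p from 0.01003 to 0.0217 for the 3 called without it), 1 was called from stage 2 to 3 in *3mlpa*, and the line differences at stage 1 of Glyma17g00950 and Glyma08g47240 turned to 0.045 and 0.14. In the copy balance from stage 1 to stage 5, the block gave p = 0.0313 in the exact test for each pair, the smallest that 6 pairs can give, so this p says nothing about stability. A single fit over all libraries also called 0 at stage 2. DESeq2 called 2 at stage 5 and 1 from stage 2 to 3 in *3mlpa*.

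With library totals only, the count from stage 1 to 5 in 3MWT was 2, with Glyma07g39820 at -0.51 (and -0.77 in *3mlpa*, adjusted p = 0.00693, the only sign change under this scaling that was called). The other differences that changed sign were at stage 3 between the lines 0.096 for Glyma16g05480 and 0.055 for Glyma08g47240. In 3MWT they were, from stage 2 to 3, -0.17 for Glyma17g00950, -0.034 for Glyma08g47240 and -0.17 for Glyma18g38490, from stage 3 to 4, -0.042 for Glyma16g05480, -0.12 for Glyma08g47240 and -0.088 for Glyma18g38490, and from stage 4 to 5, -0.12 and -0.11 for the ABI3 homologs. In *3mlpa* they were -0.21 for Glyma16g05480 from stage 3 to 4, and -0.047 for Glyma16g05480, -0.0074 for Glyma08g47240 and -0.092 for Glyma18g38490 from stage 4 to 5. The stage of the highest mean moved to 2 for Glyma17g00950, Glyma16g05480 and the ABI3 homologs in 3MWT and for Glyma16g05480 in *3mlpa*, and to 4 for the ABI3 homologs in *3mlpa*.

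Leaving out each library in turn gave 0 to 1 loci called between the lines at stage 1, 0 to 3 at stage 2, 0 to 1 at stage 3 and 0 to 2 at stage 5. It gave 2 to 5 from stage 1 to 2 in 3MWT and 0 to 1 for the line difference in the change to stage 5 from stage 1 and from stage 2. The share of all genes called in these refits is not given here, so these counts have no background to be read against. The line difference at stage 1 ranged from -0.70 to 0.22 for Glyma07g39820, -0.48 to 0.59 for Glyma17g00950, -0.22 to 0.81 for Glyma16g05480, -0.33 to 0.66 for Glyma08g47240 and -0.089 to 0.84 for Glyma18g38490. That of Glyma08g47240 ranged from -0.26 to 0.046 at stage 3 and from -0.084 to 0.32 at stage 4. The step from stage 3 to 4 ranged from -0.18 to 0.043 for Glyma17g00950 in 3MWT, and in *3mlpa* from -0.15 to 0.18 for Glyma17g00950 and -0.018 to 0.091 for Glyma16g05480, while Glyma07g39820 ranged from -0.39 to 0.0029 from stage 2 to 3. The line difference in the change from stage 1 to 5 ranged from -0.92 to 0.0033 for Glyma07g39820, -0.46 to 0.57 for Glyma16g05480, -0.25 to 0.75 for Glyma08g47240 and -0.35 to 0.59 for Glyma18g38490, and from stage 2 to 5 from -0.22 to 0.012 for Glyma07g39820. The stage of the highest mean ranged from 2 to 3 for Glyma07g39820 in *3mlpa* and from 3 to 4 for Glyma17g00950 in both lines. The cause of these changes was not tested. The single FUS3 locus had the fewest counts of the 5, with 43 to 415 per library.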

Other observations

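The row nearest in number to the missing FUS3 locus Glyma19g27340 was Glyma19g27336, which is not taken as the same gene. It was looked up after the tables had been seen. Its level was 6.0, 14.2 and 6.3 CPM in the 3MWT libraries of stage 1 and 16.3, 16.6 and 18.8 CPM in those of stage 2. In *3mlpa* it was 8.7, 5.6 and 9.2 CPM at stage 1 and 16.2, 13.9 and 16.9 CPM at stage 2. At stage 5 it was 12.9, 13.2 and 14.8 CPM in 3MWT and 16.2, 15.7 and 15.6 CPM in *3mlpa*, without overlap. Its Pearson r with the FUS3 homolog Glyma16g05480 over the 30 libraries was 0.914, which ranked 36.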
